A study of Homo sapiens with 4 samples.

Results

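The genes of the NuA4/TIP60 complex were examined beside those of the other main histone acetyltransferase complexes, in K562 cells expressing the JAZF1-SUZ12 fusion and in mock cells. The 38 genes were chosen by symbol, 18 from NuA4/TIP60, 12 from the other complexes built on MYST-family enzymes, 6 from the GCN5/PCAF complexes and the 2 paralogs EP300 and CREBBP. Each symbol matched a single row among the 35606 genes of the count table, and all 38 had enough counts to be tested. K562 is an established line from a human chronic myeloid leukaemia that has kept erythroid traits. JAZF1-SUZ12 arises in endometrial stromal sarcoma and couples the start of JAZF1 to nearly all of SUZ12, which is a core protein of Polycomb repressive complex 2. The series holds 4 poly(A)-selected, directional RNA libraries of K562 cells, 2 from cells expressing the fusion and 2 from mock cells, each pair numbered 1 and 2. The labels do not say which vector or promoter drove the fusion, what the mock cells received, or whether a line was 1 clone. They also do not say that the libraries of a group came from separate cultures, so the p-values below measure the spread between these libraries, which may be technical.

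The libraries held between 17260936 and 24423028 estimated counts. Values are given as CPM, the counts per 1000000 of the library's TMM-scaled total. The source label names the uterus although the line is K562, and the levels were those of an erythroid line. The 9 erythroid markers, globins among them, summed to 11585 and 11257 CPM in mock and 13318 and 12948 CPM with the fusion. The stromal marker LUM and the B-cell marker MS4A1 had 0 counts in every library. All 9 stromal markers summed to 31.8 and 31.2 CPM in mock and 62.5 and 62.2 CPM with the fusion, most of it from MME and COL1A1. The 6 lymphoid and monocytic markers summed to 40.6 and 35.4 CPM in mock and 27.9 and 28.5 CPM with the fusion, most of it from LYZ. The part of these differences in the results below was not tested. JAZF1 had 12 and 27 counts in mock, against 574 and 731 with the fusion, and SUZ12 was at 137 and 133 CPM in the 2 mock libraries, against 276 and 265 CPM in the 2 fusion libraries, so the labels matched both fusion partners.

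Histone acetyltransferases transfer acetyl groups from acetyl-CoA to lysines of histone tails, a mark of accessible and transcribed chromatin. NuA4/TIP60 acetylates histones H4 and H2A through the MYST-family enzyme KAT5 and exchanges the histone variant H2A.Z through the ATPase EP400. JAZF1 is itself associated with this complex, and EPC1, MEAF6 and MBTD1, which are NuA4/TIP60 subunits as well, are also joined to Polycomb-related proteins in endometrial stromal sarcoma. The other MYST enzymes work with scaffolds of the BRPF or JADE families, GCN5 and PCAF work in the SAGA and ATAC complexes, and p300 and CBP are large coactivators that acetylate histone H3 at enhancers.

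Few of these genes changed, and no change reached 2-fold. By edgeR's quasi-likelihood test at an adjusted p under 0.05, 6 of the 38 genes fell and 1 rose. RUVBL1, RUVBL2, ING3 and ACTL6A of NuA4/TIP60, JADE2 of the MYST complexes and KAT2A of the GCN5 complexes fell, and JADE3 rose. Called genes were 18.4% of the members, beside 24.7% of the 14750 genes tested, so the share of members called was not above the background. The call depended on single libraries for some members: 4 were called without mock replicate 1, and NuA4/TIP60 kept 2 of its 4 calls without that library and 2 without JAZF1-SUZ12 replicate 2. The members called lower were 15.8%, beside 11.4% of all genes tested, and those called higher were 2.63%, beside 13.3%. The members had mean levels between 11.2 and 283 CPM. Among the 8798 genes tested within that range, 17% were called lower and 10.4% higher, and the median log2 fold change was -0.049. The median over the 38 members was -0.074, beside 0.0032 over all genes tested.

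The AAA+ ATPases RUVBL1 and RUVBL2 fell together. They assemble into a mixed ring that NuA4/TIP60 shares with the SRCAP and INO80 remodelling complexes and with a cochaperone complex. RUVBL1 (ENSG00000175792; chromosome 3, 128064778 to 128153914, minus strand; GRCh38) was at 109 and 110.2 CPM in the 2 mock libraries, against 91.7 and 88.5 CPM in the 2 fusion libraries. Both fusion libraries lay below both mock libraries, and the mean went from 109 ± 1.18 CPM in mock to 90.1 ± 2.29 CPM with the fusion (SD, n = 2 in both). The log2 fold change was -0.28 (standard error, SE, 0.054; edgeR, adjusted p = 0.00136). RUVBL2 (ENSG00000183207; chromosome 19, 48993448 to 49015995, plus strand) was the more abundant, at 257 and 251 CPM in the 2 mock libraries, against 227 and 211 CPM in the 2 fusion libraries. Its groups did not overlap either, and its log2 fold change was -0.21 (SE 0.049; edgeR, adjusted p = 0.00466). Both were called in all 7 other fits of the 4 libraries and in each fit that left out 1 library. RUVBL1 shares 5.01% of its exonic bases with SEC61A1 and 5.39% with EEFSEC on the opposite strand, and no source says whether strand was used in counting.

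The promoters of this pair are shown because its members moved together, and those of JADE2 and JADE3, described below, because they moved apart (the last pair was chosen after its values were seen). Each window, from RefSeq, runs from 250 bases before to 50 after the start nearest to that of the gene's principal GENCODE transcript. Capitals mark CCAAT or its reverse complement, the box bound by NF-Y, which was added to the search after the sequences were seen.
RUVBL1 (GRCh38.p14 chr3:128123763-128124062, minus strand): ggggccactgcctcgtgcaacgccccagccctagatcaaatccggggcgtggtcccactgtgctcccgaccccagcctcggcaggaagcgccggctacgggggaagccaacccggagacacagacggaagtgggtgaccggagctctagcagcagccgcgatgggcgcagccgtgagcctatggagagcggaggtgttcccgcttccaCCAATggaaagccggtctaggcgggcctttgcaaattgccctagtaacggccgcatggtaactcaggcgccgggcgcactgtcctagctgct
RUVBL2 (GRCh38.p14 chr19:48993198-48993497, plus strand): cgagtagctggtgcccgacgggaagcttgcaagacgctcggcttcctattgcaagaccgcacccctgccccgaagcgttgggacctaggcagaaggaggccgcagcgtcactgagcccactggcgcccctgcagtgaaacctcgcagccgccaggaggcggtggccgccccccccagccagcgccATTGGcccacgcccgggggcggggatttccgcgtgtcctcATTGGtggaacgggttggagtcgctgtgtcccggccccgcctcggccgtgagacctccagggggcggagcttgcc
JADE2 (GRCh38.p14 chr5:134525858-134526157, plus strand): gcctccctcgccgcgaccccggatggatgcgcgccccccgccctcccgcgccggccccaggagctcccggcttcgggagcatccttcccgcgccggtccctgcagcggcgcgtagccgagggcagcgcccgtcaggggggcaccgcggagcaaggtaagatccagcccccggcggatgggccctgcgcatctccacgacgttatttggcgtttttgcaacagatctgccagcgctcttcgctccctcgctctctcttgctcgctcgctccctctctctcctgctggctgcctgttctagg
JADE3 (GRCh38.p14 chrX:46912171-46912470, plus strand): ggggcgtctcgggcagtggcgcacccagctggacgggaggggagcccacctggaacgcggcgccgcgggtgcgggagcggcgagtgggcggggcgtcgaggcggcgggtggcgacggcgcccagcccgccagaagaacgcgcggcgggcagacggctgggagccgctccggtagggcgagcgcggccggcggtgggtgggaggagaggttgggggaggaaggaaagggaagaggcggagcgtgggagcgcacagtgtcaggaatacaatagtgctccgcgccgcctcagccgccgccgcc
CCAAT occurred once in the RUVBL1 window, 42 bases before the start, and at 2 places in the RUVBL2 window, 65 and 25 bases before it. Neither JADE window shown held it. The window of KAT2A, a gene that fell, is not shown and did not hold CCAAT either. ACTL6A and ING3, the other called NuA4/TIP60 genes, had no window among those used. Windows at other RefSeq starts of JADE2 did hold CCAAT, the E-box and the ETS-type motif described next, some of these windows overlapping at the same site. On either strand CCAAT is found in 34.6% of the 35116 windows of this length in the table and in 15 of the 53 windows of the 31 members listed there. The E-box CACGTG, the ETS-type motif CCGGAAG, the CRE-type motif TGACGTCA and an NRF1-type palindrome, searched on both strands, were in none of the 4 windows shown. CCGGAAG was found in 10 of the member windows (18.9%) against 10.3% of all windows, and CACGTG in 6 (11.3%) against 7.26%. The 10 windows came from 9 genes, and the 6 from only 3 of the 31 genes. TGACGTCA and the NRF1-type palindrome were in no member window and in 1.85% and 1.24% of all windows. Windows of 1 gene can overlap, and a match describes the letters only.

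The 6 NuA4/TIP60 subunits that also sit in SRCAP or INO80 had a median log2 fold change of -0.19, and 3 of them, the ATPase pair and ACTL6A, fell. Over all genes tested 11.4% fell, and among those at the levels of the members 17% fell and the median was -0.049. ACTL6A, an actin-related protein found in SWI/SNF complexes too, was at 110.1 and 107 CPM in the 2 mock libraries, against 98.0 and 94.8 CPM in the 2 fusion libraries. The groups were separate, although by less than for RUVBL1, and the log2 fold change was -0.17 (SE 0.054; edgeR, adjusted p = 0.0308). With DESeq2 the adjusted p of ACTL6A was 0.0821, and it was not called without mock replicate 1 (adjusted p = 0.143) or JAZF1-SUZ12 replicate 2 (adjusted p = 0.155). VPS72, the chaperone that binds H2A.Z, stood at 50.9 and 51.8 CPM in the 2 mock libraries, against 47.9 and 41.7 CPM in the 2 fusion libraries. Its log2 fold change of -0.20 just missed the threshold (edgeR, adjusted p = 0.0531), with a 95% interval from the fit of -0.36 to -0.048. It passed with limma-voom (adjusted p = 0.0414) and with no filter (edgeR, adjusted p = 0.0244). The value rested on single libraries, at -0.30 without JAZF1-SUZ12 replicate 1 (edgeR, adjusted p = 0.00402) and -0.10 without JAZF1-SUZ12 replicate 2 (adjusted p = 0.505). VPS72 shares 40.5% of its exonic bases with TMOD4 on the same strand, which had a mean of 19.5 counts. DMAP1, which bridges the actin-related module, and YEATS4, a reader of acylated lysine, were not called, with log2 fold changes of -0.096 (95% interval -0.28 to 0.085) and 0.074 (-0.11 to 0.25). DMAP1 was at 25.4 and 26.7 CPM in mock and 23.98 and 24.7 CPM with the fusion, without overlap, and YEATS4 at 37.9 and 32.2 CPM in mock and 38.3 and 35.6 CPM with the fusion, with overlap.

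Among the genes of the catalytic module and MBTD1, only ING3 passed the test. KAT5, the acetyltransferase of the complex, was at 39.3 and 35.5 CPM in the 2 mock libraries, against 40.6 and 38.4 CPM in the 2 fusion libraries. The groups overlapped, and the log2 fold change of 0.076 had a 95% interval of -0.084 to 0.24 (edgeR, adjusted p = 0.513). KAT5 shares 38.6% of its exonic bases with RNASEH2C on the opposite strand, RNASEH2C having a mean of 928 counts, so its own level is uncertain. ING3, whose PHD finger reads methylated histone H3, was at 45.1 and 41.2 CPM in the 2 mock libraries, against 36.2 and 37.2 CPM in the 2 fusion libraries. Both fusion libraries were lower than both mock libraries, and ING3 changed by -0.23 (SE 0.073; edgeR, adjusted p = 0.0293). That call was lost with DESeq2 (adjusted p = 0.142), with total counts only (adjusted p = 0.0547), and in 3 of the 4 fits without 1 library, the exception being the fit without mock replicate 2.

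The scaffolds EPC1 and EPC2, which tie KAT5 to nucleosomes, had overlapping groups. EPC1 was at 28.3 and 31.1 CPM in mock and 29.6 and 33.4 CPM with the fusion, and EPC2 at 40.1 and 37.7 CPM in mock and 40.9 and 38.1 CPM with the fusion. Their log2 fold changes were 0.089 and 0.018 (edgeR, adjusted p = 0.499 and 0.888). MEAF6, a small subunit that several MYST complexes share, and MBTD1, a reader of methylated histone H4, were lower in the mean without passing the test. MEAF6 was at 58.8 and 52.8 CPM in mock and 53.4 and 49.9 CPM with the fusion, a log2 difference of -0.11 (edgeR, adjusted p = 0.26). MBTD1 was at 45.0 and 48.4 CPM in mock and 42.0 and 42.4 CPM with the fusion, a log2 difference of -0.15 (edgeR, adjusted p = 0.136).

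The largest proteins of the complex, EP400 and the ATM-related scaffold TRRAP, were not called. EP400 stood at 161 and 175 CPM in mock and 156 and 155 CPM with the fusion, and TRRAP at 221 and 228 CPM in mock and 205 and 214 CPM with the fusion. In both genes the fusion libraries lay below the mock libraries, but the log2 fold changes of -0.11 and -0.099 did not pass (edgeR, adjusted p = 0.146 and 0.143). That of EP400 was -0.18 without mock replicate 1 (adjusted p = 0.0589) and -0.059 without mock replicate 2. The module of MRG-domain and bromodomain proteins, which reads histone marks over transcribed genes, gave no call among 4 genes. MORF4L1, MORF4L2 and MRGBP had log2 fold changes of -0.066, -0.11 and -0.16 (edgeR, adjusted p = 0.33, 0.109 and 0.121). MORF4L1, the chromodomain protein MRG15, was at 268 and 254 CPM in mock and 249 and 249 CPM with the fusion, and its paralog MORF4L2 at 305 and 283 CPM in mock and 275 and 269.9 CPM with the fusion. MORF4L2 passed without mock replicate 2, at -0.18 (edgeR, adjusted p = 0.033), and was at -0.063 without mock replicate 1. BRD8 was the one NuA4/TIP60 gene whose fusion libraries both lay above the mock libraries, at 92.6 and 90.9 CPM in the 2 mock libraries, against 100.2 and 102 CPM in the 2 fusion libraries. The log2 fold change of BRD8 was 0.14 (edgeR, adjusted p = 0.067), and it passed with total counts only (adjusted p = 0.0349) and with a mean of at least 50 counts as the filter (adjusted p = 0.027). MORF4L1 has processed pseudogenes, between which and the gene its estimated count may be divided.

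**Figure D1:**
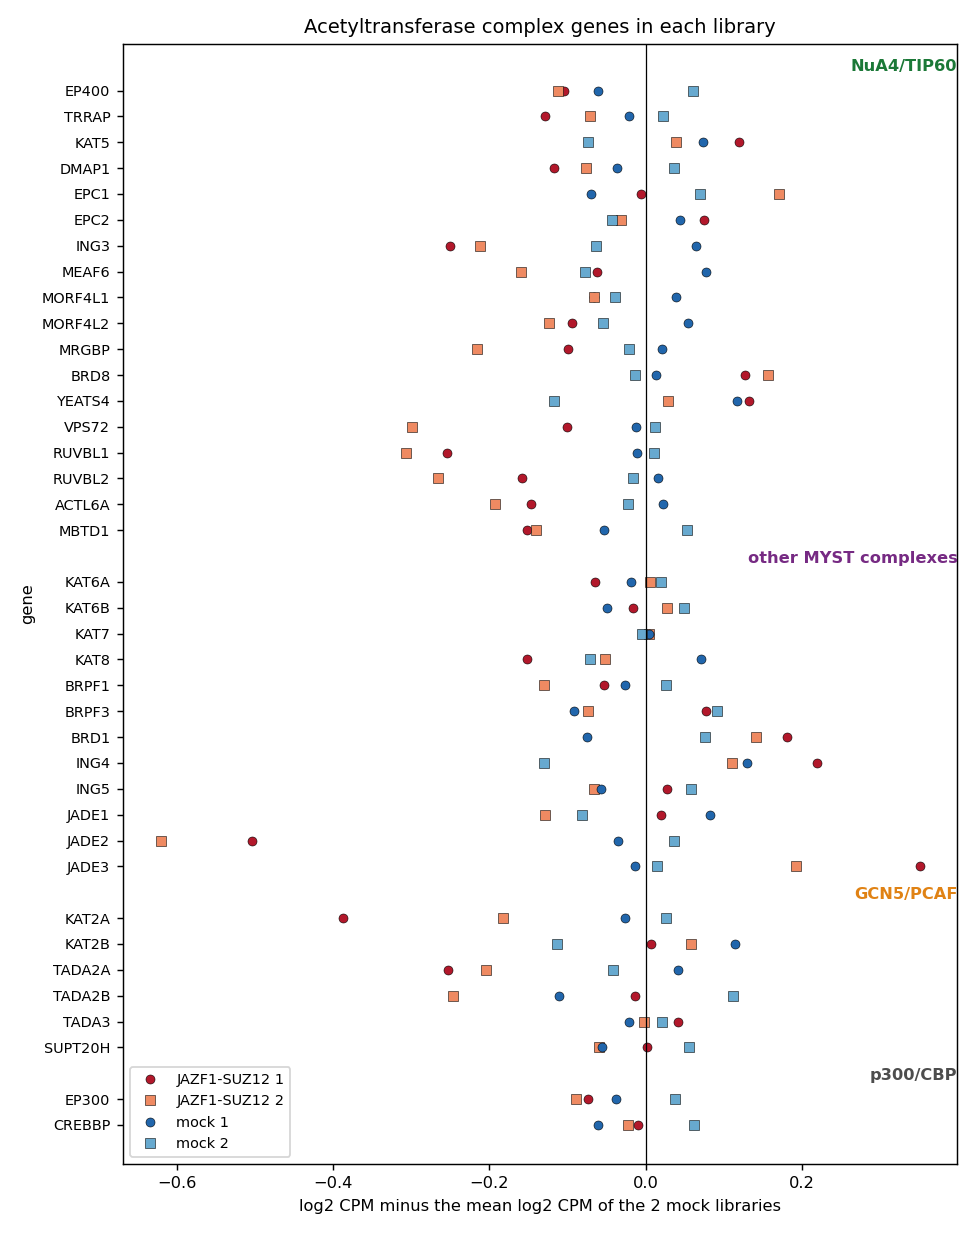
Level of each gene in the 4 libraries, as log2 CPM minus the mean log2 CPM of the 2 mock libraries (horizontal axis), with genes grouped by complex. Circles and squares are replicates 1 and 2, red and orange the JAZF1-SUZ12 libraries, and dark and light blue the mock libraries. The fusion libraries stand left of both mock libraries for 12 of the 18 NuA4/TIP60 genes and 5 of the other 20. RUVBL1, RUVBL2, ING3 and ACTL6A are among them. The same holds for 30.3% of all genes tested and 41.6% of those at the levels of the members. JADE2 and JADE3 stand out in opposite directions.

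Of the 12 genes of the other MYST complexes, JADE2 fell and JADE3 rose, and both are scaffolds that direct KAT7 to histone H4. JADE2 (ENSG00000043143; chromosome 5, 134524312 to 134583230, plus strand) was at 27.4 and 28.8 CPM in the 2 mock libraries, against 19.8 and 18.3 CPM in the 2 fusion libraries. In the edgeR fit this was the largest change among all members, a drop from 28.1 ± 0.984 to 19.0 ± 1.09 CPM (SD, n = 2 in both). The log2 fold change was -0.57 (SE 0.091; edgeR, adjusted p = 0.000303), and JADE2 was called in all 7 other fits of the 4 libraries and in each fit without 1 library. With DESeq2 on these counts the adjusted p of JADE2 was 0.000795. In the authors' deposited table JADE2 was at -0.34 and was not called (adjusted p = 0.339), and the reason for this gap was not tested. JADE3 (ENSG00000102221; chromosome X, 46912276 to 47061242, plus strand) was at 19.8 and 20.2 CPM in the 2 mock libraries, against 25.6 and 22.9 CPM in the 2 fusion libraries. The groups did not overlap and the log2 fold change was 0.27 (SE 0.095), at the edge of the threshold (edgeR, adjusted p = 0.0497). JADE3 was called in 3 of the 7 other fits, with adjusted p-values from 0.0326 to 0.219, the highest with DESeq2. It was not called without mock replicate 1, mock replicate 2 or JAZF1-SUZ12 replicate 1, where the adjusted p was 0.159, 0.106 and 0.277. JADE1, the most abundant of the family, was at 68.9 and 61.5 CPM in mock and 66.0 and 59.5 CPM with the fusion and was not called (-0.059; edgeR, adjusted p = 0.598).

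None of the enzymes KAT6A, KAT6B, KAT7 and KAT8 was called. KAT7, also known as HBO1, was at 62.2 and 61.8 CPM in the 2 mock libraries, against 62.2 and 62.2 CPM in the 2 fusion libraries. Its 95% interval was -0.12 to 0.13 on the log2 scale, as estimated from these libraries only. KAT6A, which acetylates histone H3 and is rearranged in acute myeloid leukaemia, was at 105 and 107 CPM in mock and 101 and 106 CPM with the fusion. Its paralog KAT6B was at 33.0 and 35.4 CPM in mock and 33.8 and 34.8 CPM with the fusion. KAT8, the histone H4 lysine 16 acetyltransferase also known as MOF, was at 60.3 and 54.7 CPM in mock and 51.7 and 55.4 CPM with the fusion. The log2 fold changes of KAT6A, KAT6B and KAT8 were -0.028, 0.0059 and -0.099 (edgeR, adjusted p = 0.761, 0.966 and 0.328). The BRPF-family scaffolds BRPF1, BRPF3 and BRD1, which direct KAT6A, KAT6B and KAT7 to histone H3, had log2 fold changes of -0.094, -0.0049 and 0.16 and did not pass the test. BRPF1 was at 58.7 and 60.9 CPM in mock and 57.6 and 54.6 CPM with the fusion, and BRPF3 at 52.9 and 60.1 CPM in mock and 59.5 and 53.5 CPM with the fusion. BRD1 was at 27.0 and 30.0 CPM in mock and 32.2 and 31.4 CPM with the fusion, higher in both fusion libraries than in either mock library (edgeR, adjusted p = 0.181). ING4 and ING5, the PHD-finger subunits of these complexes, had log2 fold changes of 0.16 and -0.024. ING4 was at 11.5 and 9.62 CPM in mock and 12.3 and 11.4 CPM with the fusion, and ING5 at 32.7 and 35.4 CPM in mock and 34.7 and 32.5 CPM with the fusion, and neither was called.

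KAT2A fell and KAT2B was not called. KAT2A, or GCN5 (ENSG00000108773; chromosome 17, 42113108 to 42121358, minus strand), is the acetyltransferase of SAGA and ATAC and stood at 75.01 and 77.8 CPM in the 2 mock libraries, against 58.4 and 67.3 CPM in the 2 fusion libraries. JAZF1-SUZ12 replicate 1 was the lowest library, and replicate 2 was still below both mock libraries. The log2 fold change was -0.28 (SE 0.068; edgeR, adjusted p = 0.00783). Without JAZF1-SUZ12 replicate 1 it was -0.19 and no longer passed (adjusted p = 0.0536), whereas it was called in the other 3 fits without 1 library. KAT2B, or PCAF, the enzyme that can take the same place in both complexes, was at 49.3 and 42.1 CPM in the 2 mock libraries, against 45.8 and 47.4 CPM in the 2 fusion libraries, with overlapping groups (log2 fold change 0.030; edgeR, adjusted p = 0.816). The adaptors that hold these enzymes gave no call. TADA2A, of SAGA's counterpart ATAC, was at 23.1 and 21.9 CPM in mock and 18.9 and 19.5 CPM with the fusion, a log2 difference of -0.23 (edgeR, adjusted p = 0.0942). TADA2B, its paralog in SAGA, was at 27.1 and 31.7 CPM in mock and 29.04 and 24.7 CPM with the fusion, a log2 difference of -0.14 (edgeR, adjusted p = 0.334). TADA3, which both complexes share, and SUPT20H, a core subunit of SAGA, had log2 fold changes of 0.019 and -0.032 (edgeR, adjusted p = 0.82 and 0.791). TADA3 shares 11.3% of its exonic bases with ARPC4 on the opposite strand.

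EP300 and CREBBP, which encode p300 and CBP, were not called. EP300 was at 92.6 and 97.6 CPM in the 2 mock libraries, against 90.3 and 89.4 CPM in the 2 fusion libraries, and CREBBP at 63.2 and 68.8 CPM in the 2 mock libraries, against 65.5 and 64.9 CPM in the 2 fusion libraries. The log2 fold changes were -0.083 (95% interval -0.20 to 0.036) and -0.018 (-0.15 to 0.11) (edgeR, adjusted p = 0.316 and 0.868).

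**Figure D2:**
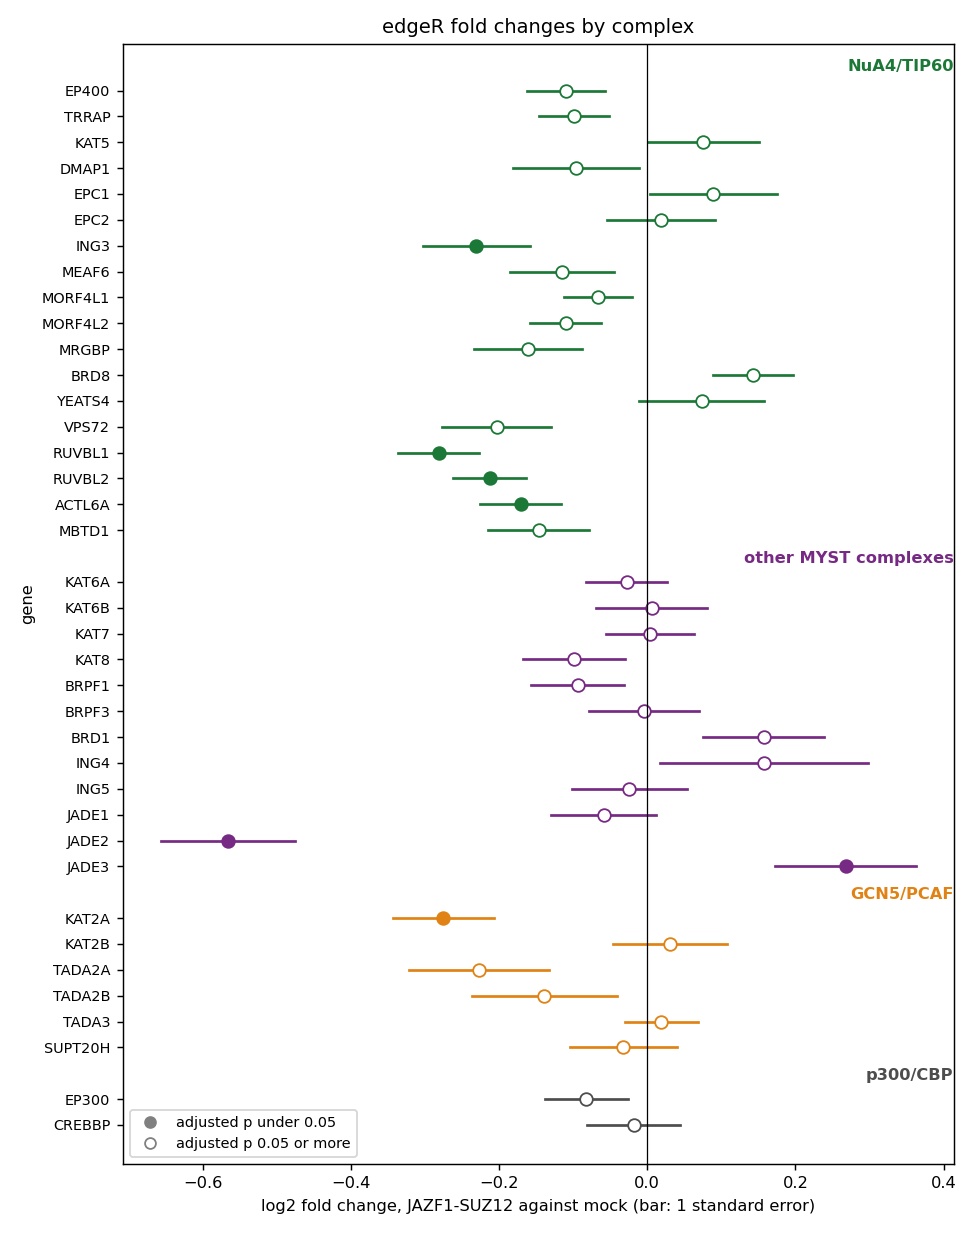
Log2 fold change of each gene between the JAZF1-SUZ12 and mock libraries by edgeR (horizontal axis), with bars of 1 standard error and genes grouped by complex. Filled circles passed an adjusted p of 0.05: 4 of 18 NuA4/TIP60 genes, all lower, and JADE2, JADE3 and KAT2A among the other 20.

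Set against the other complexes, NuA4/TIP60 had the lower median. The median log2 fold change was -0.11 over its 18 genes, with a range from -0.28 to 0.14, and -0.026 over the other 20, with a range from -0.57 to 0.27. The median over all genes tested was 0.0032, and that over the genes at the levels of the members was -0.049. Within NuA4/TIP60 the median was -0.19 over the 6 subunits shared with SRCAP or INO80. It was -0.048 over the catalytic module counted with MBTD1 (6 genes), -0.10 over EP400 and TRRAP, and -0.088 over the 4 MRG-domain and bromodomain genes. Log2 fold changes were below 0 for 13 of 18 NuA4/TIP60 genes and 13 of 20 others, against 49.5% of all genes tested and 61.7% of the genes at the levels of the members. Both fusion libraries lay below both mock libraries for 12 NuA4/TIP60 genes and for 5 of the others, beside 30.3% of all genes tested and 41.6% of those at the levels of the members. Groups without overlap in either direction numbered 13 and 7, beside 61.3% of all genes and 64.6% at the levels of the members. Summed over its genes, NuA4/TIP60 stood at 1936 and 1897 CPM in mock and 1795 and 1762 CPM with the fusion. The other complexes summed to 1089.5 and 1113 CPM in mock and 1073 and 1058 CPM with the fusion, which did not overlap either. No test of the difference between the groups of genes was made, because the genes were chosen with results of these data known. In whole-culture RNA, fewer cells that express a gene and less RNA per cell cannot be told apart.

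Ratios of related genes within a library do not depend on how libraries are scaled, and 8 of 13 such ratios had groups that did not overlap, a share close to the 61.3% of single genes tested, from which nothing is read. With 2 libraries per group an exact permutation test cannot go below p = 0.333, so these ratios are given without a test. The ratio of JADE2 to JADE3 counts differed most, at 1.38 and 1.42 in mock and 0.775 and 0.798 with the fusion. Replicates differed in it by at most 0.043 on the log2 scale, and the groups by -0.83. The ratio of JADE1 to JADE2 was 2.51 and 2.14 in mock and 3.33 and 3.26 with the fusion. For KAT2A over KAT2B it was 1.52 and 1.85 in mock and 1.28 and 1.42 with the fusion, with a gap between replicates of up to 0.28 against -0.32 between groups (log2). BRPF1 over BRD1 was 2.18 and 2.03 in mock and 1.79 and 1.74 with the fusion. The ATPase ratio RUVBL1 over RUVBL2 differed little, at 0.423 and 0.439 in mock and 0.403 and 0.419 with the fusion. Its groups did not overlap, with -0.068 between groups and up to 0.056 between replicates (log2). Ratios of JADE1 to JADE3, MORF4L1 to MORF4L2 and EP300 to CREBBP did not overlap either. They differed by -0.33, 0.043 and -0.065 on the log2 scale. Ratios of EPC1 to EPC2, KAT6A to KAT6B, BRPF1 to BRPF3, ING4 to ING5 and TADA2A to TADA2B overlapped between groups.

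**Figure D3:**
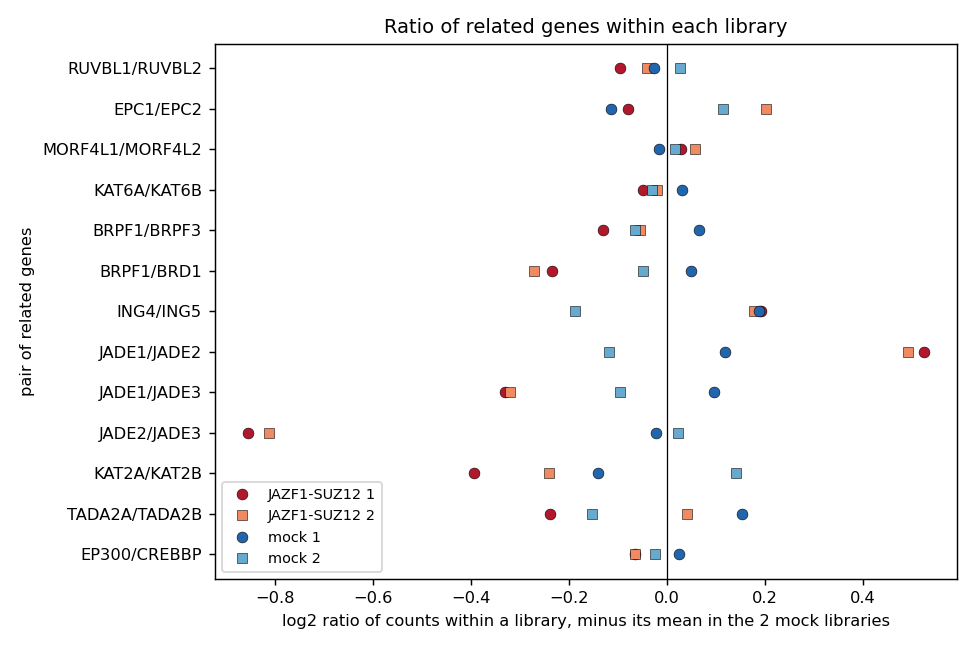
Log2 ratio of the counts of related genes within each library, minus the mean of that ratio in the 2 mock libraries (horizontal axis). Symbols are the 4 libraries; JADE2/JADE3 and JADE1/JADE2 lay furthest from mock, in opposite directions, and RUVBL1/RUVBL2 differed by -0.068.

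Levels differed far more between members than between groups. To compare genes, CPM was divided by the length in kilobases of the longest principal transcript in GENCODE, which need not be the form these cells use. In mock, MORF4L2 was highest at 148 ± 7.90 CPM per kilobase (SD, n = 2), followed by RUVBL2 at 126 ± 1.96, MORF4L1 at 111 ± 4.22, TADA3 at 69.5 ± 1.42, RUVBL1 at 62.1 ± 0.671 and ACTL6A at 57.0 ± 1.252. Of the 6 highest, 5 were thus NuA4/TIP60 genes, and 3 of those 5 were among the genes that fell. KAT8, at 31.1 ± 2.15, was the highest of the acetyltransferases, followed by KAT2A at 24.6 ± 0.633 and KAT5 at 16.3 ± 1.17 CPM per kilobase in mock (SD, n = 2 each). KAT6A, EP300, KAT2B, KAT7, CREBBP and KAT6B ranged from 11.5 ± 0.217 down to 4.10 ± 0.196. JADE2 and JADE3 stood among the 3 lowest, JADE2 at 4.34 ± 0.152 and JADE3 at 4.06 ± 0.0565. In 27 of the 37 neighbouring pairs of this order the ranges over the 4 libraries overlapped, so the order of close neighbours is not resolved. The clear steps included those from MORF4L1 down to TADA3, from ACTL6A down to VPS72 and from CREBBP down to TADA2A.

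**Figure D4:**
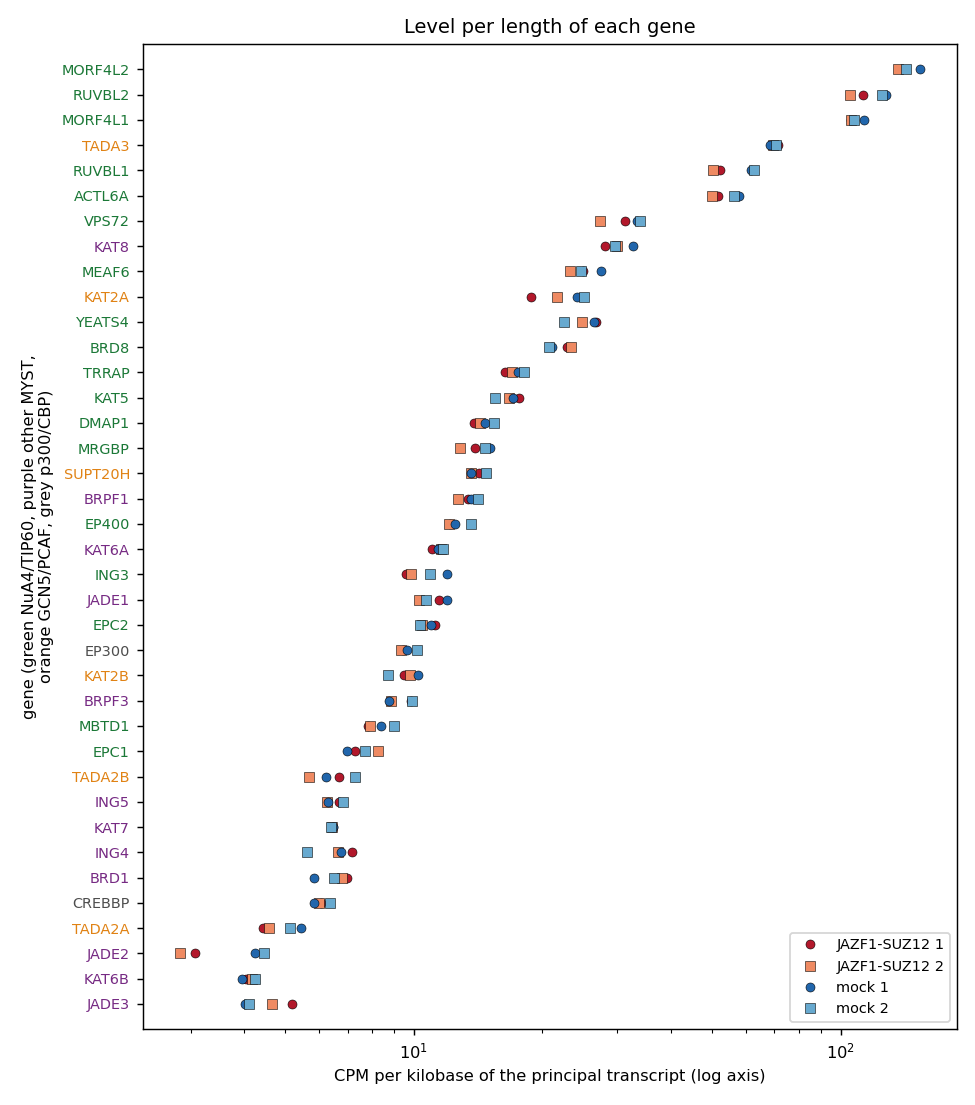
CPM per kilobase of the principal transcript (log axis) of each gene in the 4 libraries, ordered by the mean in mock. Gene names are coloured by complex; the genes span from 4.06 to 148 CPM per kilobase in mock, and the libraries of a gene lie close together beside that span.

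The partners of these complexes were followed through lists of 80 further genes, of which 18 fell and 6 rose. Called genes were 30.0% of them, beside 24.7% of all genes tested and 27.4% of those at the levels of the members. By direction, 22.5% of them fell, beside 11.4% of all genes tested and 17% of those at the levels of the members. Those that rose were 7.5%, beside 13.3% and 10.4%. DESeq2 called fewer genes in general, 16.3% of those tested. With DESeq2, 12 of these 24 calls were lost, those of TAF6L, TAF12, ATXN7L3, ENY2, WDR5, KANSL2, INO80C, RPAP3, URI1, HDAC11, SIRT6 and SIRT7, and with total counts only 7. Of 11 cochaperones that work with the RUVBL1 and RUVBL2 ring, 4 fell and 0 rose, with a median log2 fold change of -0.18. ZNHIT6, TELO2, RPAP3 and URI1 changed by -0.35, -0.22, -0.22 and -0.17 (edgeR, adjusted p = 0.00554, 0.00834, 0.0257 and 0.0405). TELO2, which helps PI3K-like kinases such as TRRAP to mature, was at 93.0 and 94.7 CPM in mock and 81.2 and 80.0 CPM with the fusion. The call of TELO2 held in all other fits, whereas by edgeR URI1 was not called when any 1 library was left out (adjusted p up to 0.176), ZNHIT6 was not called without mock replicate 2 (adjusted p = 0.0527) and RPAP3 was not called without JAZF1-SUZ12 replicate 2 or mock replicate 1 (adjusted p up to 0.23). In the SRCAP and INO80 list, 3 of 14 fell and 0 rose (median -0.13). The INO80-bound deubiquitinase UCHL5 was at 189 and 185 CPM in mock and 155 and 151 CPM with the fusion, and YY1, a DNA-binding subunit of INO80, at 146 and 156 CPM in mock and 132 and 124 CPM with the fusion. Their log2 fold changes were -0.29 and -0.24, and that of INO80C was -0.28 (edgeR, adjusted p = 0.000384, 0.00434 and 0.0335); INO80C was not called without JAZF1-SUZ12 replicate 2 or mock replicate 1 (adjusted p up to 0.251). H2AZ1, which encodes the H2A.Z that EP400 and SRCAP deposit, went from 483 ± 15.8 CPM in mock to 419.9 ± 13.1 CPM with the fusion (SD, n = 2 in both), and changed by -0.20 on the log2 scale (edgeR, adjusted p = 0.00317). It was the only call among 5 genes for H2A.Z and BET-family acetyl-lysine readers (median -0.087).

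Among 20 other SAGA and ATAC genes, 5 fell and 2 rose, with a median log2 fold change of -0.075. The background for this and the next 3 lists is 11.4% lower and 13.3% higher over all genes tested, and 17% and 10.4% at the levels of the members. YEATS2, the acetyl-lysine reader of ATAC, rose from 76.3 ± 0.912 CPM in mock to 104 ± 2.96 CPM with the fusion (SD, n = 2 in both), or by 0.44 on the log2 scale (edgeR, adjusted p = 3.16e-05), and TAF12 rose by 0.25 (adjusted p = 0.0116). TAF5L, a SAGA core subunit, was at 49.3 and 49.0 CPM in mock and 39.5 and 40.4 CPM with the fusion and changed by -0.30 (edgeR, adjusted p = 0.00375). ATXN7L3 of the SAGA deubiquitinase changed by -0.18 (edgeR, adjusted p = 0.0274), and ENY2 by -0.20 (adjusted p = 0.0335). WDR5 and TAF6L were called lower with larger p-values (edgeR, adjusted p = 0.0407 and 0.0453), in 4 and 3 of the 7 other fits. By edgeR, TAF12 was not called without JAZF1-SUZ12 replicate 2 or mock replicate 2 (adjusted p up to 0.11), ATXN7L3 was not called without JAZF1-SUZ12 replicate 2, mock replicate 1 or mock replicate 2 (adjusted p up to 0.178) and ENY2 was not called without JAZF1-SUZ12 replicate 2 or mock replicate 1 (adjusted p up to 0.318). In the same fits, WDR5 was not called when any 1 library was left out (adjusted p up to 0.142) and TAF6L was not called without JAZF1-SUZ12 replicate 1, JAZF1-SUZ12 replicate 2 or mock replicate 1 (adjusted p up to 0.251). The partners of KAT8 had 2 of 10 genes lower and a median of -0.039, KANSL2 at -0.31 and HCFC1 at -0.17 (edgeR, adjusted p = 0.00915 and 0.0296). By edgeR, KANSL2 was not called without mock replicate 2 (adjusted p = 0.0543), and HCFC1 was not called without JAZF1-SUZ12 replicate 2 or mock replicate 2 (adjusted p up to 0.278). Of 17 genes of the histone deacetylase and sirtuin families, 3 fell and 2 rose (median -0.064). HDAC2, SIRT6 and SIRT7 changed by -0.17, -0.25 and -0.23, and HDAC5 and HDAC11 by 0.21 and 0.44 (edgeR, adjusted p = 0.0151, 0.0442, 0.0467, 0.0162 and 0.0294). Each of these 5 calls was lost in at least 1 fit without a library: HDAC2 was not called without JAZF1-SUZ12 replicate 2 or mock replicate 1 (adjusted p up to 0.101), HDAC5 was not called without mock replicate 1 (adjusted p = 0.232), HDAC11 was not called without JAZF1-SUZ12 replicate 2 or mock replicate 1 (adjusted p up to 0.208), SIRT6 was not called without JAZF1-SUZ12 replicate 2, mock replicate 1 or mock replicate 2 (adjusted p up to 0.227) and SIRT7 was not called without JAZF1-SUZ12 replicate 1 or mock replicate 2 (adjusted p up to 0.182). Of the 3 genes that supply acetyl-CoA, 2 rose (median 0.13). ACSS2, which makes acetyl-CoA from acetate, was at 220.3 and 215 CPM in the 2 mock libraries, against 298 and 304 CPM in the 2 fusion libraries, and rose by 0.47 on the log2 scale (SE 0.045; edgeR, adjusted p = 1.69e-06). SLC25A1, the mitochondrial citrate carrier, rose by 0.13 (adjusted p = 0.0314), although SLC25A1 was not called without JAZF1-SUZ12 replicate 1, mock replicate 1 or mock replicate 2 (adjusted p up to 0.207), and ACLY, which cleaves citrate, was not called (0.074; adjusted p = 0.215).

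In the authors' deposited table, 2 of the 38 members passed an adjusted p of 0.05, RUVBL1 and RUVBL2, both lower, beside 8.5% of the genes with an adjusted p in that table. The authors' deposited table gives log2 fold changes of -0.30 (adjusted p = 0.0237) for RUVBL1 and -0.24 (adjusted p = 0.0167) for RUVBL2. It was -0.31 (adjusted p = 0.173) for ING3, -0.15 (adjusted p = 0.392) for ACTL6A and -0.28 (adjusted p = 0.0964) for KAT2A in the authors' deposited table. Neither JADE gene was called there, with -0.34 (adjusted p = 0.339) for JADE2 and 0.12 (adjusted p = 0.857) for JADE3 in the authors' deposited table. VPS72, at -0.36 (adjusted p = 0.0538) in the authors' deposited table, just missed the threshold there too. Of the 80 further genes, 8 passed there, 6 lower and 2 higher, against 24 in the edgeR fit. Among the 8 were 0 of the 11 cochaperones and 0 of the 17 histone deacetylase and sirtuin genes. TELO2 was at -0.21 (adjusted p = 0.189) in the authors' deposited table. All 7 called members had the same sign in the authors' deposited table, and so did 29 of the 38 in all. Both analyses start from the same libraries, so this is no independent check.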

How the data were processed

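RNA was measured by sequencing in 2 JAZF1-SUZ12 and 2 mock K562 libraries. The values the authors deposited are estimated counts per gene, not normalized; the submitters' processing notes list fastp 0.20.1, FastQC 0.11.7, MultiQC 1.5, kallisto 0.46.2, DESeq2 1.30.1 and build hg38, with no role or order, and the annotation and any use of strand are not given in the sources used here. The share of values that were not whole ran from 33.9% to 37.4% across libraries, so counts were rounded, and their division among related genes is uncertain. The authors' deposited comparison has, per the file headers, a mean signal of normalized counts, a log2 fold change with its error, a score (the test statistic), and a p-value and adjusted p-value, of which the last is missing for 5356 of 21251 genes.

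Genes were kept by edgeR's filterByExpr, scaled by TMM and tested with edgeR's quasi-likelihood test (edgeR 4.0.16, R 4.3.3), group being the only term, with Benjamini-Hochberg adjustment over all genes tested and a threshold of 0.05, two-sided. The standard error is the log2 fold change divided by the square root of F, and the 95% interval uses the fit's degrees of freedom. The fits were tested on simulated counts. The members and lists were chosen with earlier results of these data known. The genes named are all members, and up to 4 called genes of each further list with the smallest p-values; others were chosen after their values were seen. Gene positions and lengths come from GENCODE 29 on GRCh38, which 35410 of 35606 gene IDs matched, and promoters from RefSeq on GRCh38.p14. Alternatives were DESeq2 1.42.0, limma-voom (limma 3.58.1), DESeq2 size factors, total counts, 2 other filters, the replicate number as a block, a threshold of 0.01 and leaving out each library. The 2 libraries per group limit every SD, and intervals do not cover what they share.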

Additional observations from a re-analysis of the deposited data

How the results depend on the processing

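With DESeq2, 2407 of the 14750 genes were called (16.3%), 1051 lower. Of the 38 members, 4 were called (0 higher), 2 of NuA4/TIP60, all lower. The calls of ING3, ACTL6A and JADE3 were lost, and the cause was not tested. A threshold of 0.01 left 2045 of the 14750 genes, 1255 higher and 790 lower. It left 4 of the 38 members, 2 of them NuA4/TIP60 and 0 higher. The number of members higher was 0 with DESeq2 size factors, limma-voom and no filter, where JADE3 was lost, and 2 with total counts only and with a mean of at least 50 counts, where BRD8, 1 NuA4/TIP60 gene, was added. The NuA4/TIP60 median was -0.088 with total counts and -0.086 with the 50-count filter.

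Fits without 1 library have 1 residual degree of freedom and assume that the lone library varies like the others. They called 2568 to 3782 genes (1498 to 1841 higher, 1070 to 1941 lower) and 4 to 7 members (0 to 1 higher, 4 to 7 lower): 2 to 5 of NuA4/TIP60 (all lower) and 1 to 3 others (0 to 1 higher, 1 to 2 lower). The fewest members, 4, were called without mock replicate 1, the fewest lower genes, 1070, without JAZF1-SUZ12 replicate 2, and the fewest in the other complexes, 1, without JAZF1-SUZ12 replicate 1. The medians ranged from -0.13 to -0.10 for NuA4/TIP60 and -0.070 to -0.0064 for the others. No called member changed sign. Members that were not called did without 1 library, with log2 fold changes of -0.10 to 0.078 for BRPF3, -0.086 to 0.033 for CREBBP, -0.0085 to 0.16 for EPC1, -0.037 to 0.073 for EPC2, -0.088 to 0.025 for ING5, -0.15 to 0.018 for JADE1, -0.092 to 0.14 for KAT2B, -0.0081 to 0.14 for KAT5, -0.066 to 0.0015 for KAT6A, -0.050 to 0.044 for KAT6B, -0.013 to 0.0036 for KAT7, -0.094 to 0.012 for SUPT20H, -0.0097 to 0.041 for TADA3, -0.052 to 0.19 for YEATS4. Other members that were not called kept their sign but moved by over 1.5 times from the fit of all 4 libraries: 0.076 to 0.22 for BRD1, -0.13 to -0.054 for BRPF1, -0.13 to -0.057 for EP300, -0.18 to -0.059 for EP400, 0.020 to 0.28 for ING4, -0.18 to -0.035 for KAT8, -0.20 to -0.044 for MEAF6, -0.12 to -0.035 for MORF4L1, -0.18 to -0.063 for MORF4L2, -0.22 to -0.100 for MRGBP, -0.26 to -0.020 for TADA2B, -0.30 to -0.10 for VPS72. The remaining members that were not called moved by less from that fit. They ranged from -0.14 to -0.071 for DMAP1, -0.21 to -0.10 for MBTD1 and -0.13 to -0.076 for TRRAP. BRD8 ranged from 0.12 to 0.15 and TADA2A from -0.28 to -0.19. With no filter KAT6B was -0.0028 and KAT7 -0.0047. BRPF3 was 0.017 with total counts and 0.019 with the 50-count filter, and CREBBP 0.0041 and 0.0058.

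Blocking on the replicate number gave 4061 called genes, 8 members and 5 NuA4/TIP60 genes, VPS72 being added. The labels link the groups by these numbers only and do not say whether the libraries were paired. The replicate differences correlated over 11826 genes at r = 0.0346, across genes, which are not independent. This value cannot settle whether they were paired.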
